A study of Mus musculus with 48 samples.

Results

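Cytosolic ribosomal proteins, the structural proteins of the large (Rpl) and small (Rps) ribosomal subunits, were followed through 4 organs of 2 mouse strains. The members were the probe sets, groups of short probes that read a transcript, whose platform annotation gives a single gene symbol beginning with Rpl or Rps and a digit, or Rpsa, Rplp0, Rplp1 or Rplp2, without the Rps6k kinases. They numbered 49 of the 12422 probe sets tested, and named 35 genes. The large subunit had 22 of them and the small subunit 27. A further 39 probe sets carried a ribosomal protein symbol joined with other symbols and were summarised only as a group. No single-symbol probe set named Rplp1, Rplp2, Rpl5, Rpl11, Rps6 or Rack1.

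The series holds 48 Affymetrix MG-U74Av2 arrays, 1 per RNA sample. The 16 groups are spleen, lung, heart and liver of A/J and of C57BL/6J mice, each at time 2 and at time 1, with 3 biological replicates per group. All animals were inbred males aged 3 months, described as littermates, and the labels do not say what separates the time points. The sources do not say whether 1 mouse gave several organs, so the p-values measure the spread between these samples. The arrays fall into 4 runs by the names of their scan files: liver and lung at time 1, spleen at time 1, heart at time 1, and all organs at time 2. The deposited log2 values were used, and organs were therefore compared at time 2, where they share a run.

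A ribosome carries a single copy of most ribosomal proteins, and cells make them in near balance with ribosomal RNA. Their mRNAs begin with a run of pyrimidines, through which mTOR signalling controls their translation, and dividing or secreting cells make many ribosomes. Some members have paralogs: Rps4l resembles Rps4x, Rps27l resembles Rps27, Rpl39l resembles Rpl39, and Rpl7l1 resembles Rpl7. In bulk organs, a difference in cell makeup and a difference in RNA per cell cannot be told apart.

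Probe sets for the same family differed widely in signal, which is not a measure of amount between probe sets. A split was made after the values were seen: 24 probe sets (21 genes) lay at or above the 75th percentile of all probe sets by mean signal over the 48 arrays, 10.08 log2, and are called bright here; 25 lay below and are called dim. Rps4x, Rps28, Rps24 and Rpl7 had probe sets on both sides. Of the 49, 19 lay above the 95th percentile of all probe sets.

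The promoters of the 4 genes with the largest spleen minus heart difference in a bright probe set, among those with an entry, and of 3 paralogs, are shown because the first set moved together across organs. Each window runs from 40 bases before to 30 bases after the start in RefSeq (GRCm38.p6), on the gene's strand. Capitals mark the longest run of at least 7 pyrimidines between 10 bases before and 30 bases after the start. Where runs were equally long, as in Rpl10a and Rpl39l, only the first is marked. The windows lie at chr17:28328431-28328500 (Rpl10a, plus strand), chr17:27635215-27635284 (Rps10, minus), chr5:121204461-121204530 (Rpl6, plus), chr7:99483680-99483749 (Rps3, minus), chr9:66946046-66946115 (Rps27l, plus), chr16:10170188-10170257 (Rpl39l, plus) and chr17:46782627-46782696 (Rpl7l1, minus).
Rpl10a: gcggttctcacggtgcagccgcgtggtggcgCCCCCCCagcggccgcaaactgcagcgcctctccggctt
Rps10: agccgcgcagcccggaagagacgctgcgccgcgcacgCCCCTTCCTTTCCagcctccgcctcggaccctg
Rpl6: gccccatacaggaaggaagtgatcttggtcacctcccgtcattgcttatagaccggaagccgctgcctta
Rps3: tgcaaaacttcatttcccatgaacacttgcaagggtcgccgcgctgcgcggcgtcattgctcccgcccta
Rps27l: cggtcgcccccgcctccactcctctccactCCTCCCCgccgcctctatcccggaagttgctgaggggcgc
Rpl39l: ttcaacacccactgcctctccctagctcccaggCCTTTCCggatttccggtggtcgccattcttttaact
Rpl7l1: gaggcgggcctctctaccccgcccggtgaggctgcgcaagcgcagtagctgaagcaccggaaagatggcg
RefSeq starts were found for 28 of the 35 member genes. A pyrimidine run of this kind, searched on the gene's strand, was present for 18 of the 28 (64.3%), against 25.5% of 27025 genes in the table. Runs wholly before the start were counted too, so the count does not show that the mRNA begins with such a run. The marked runs of Rpl10a, Rps27l and Rpl39l end before the start, and only that of Rps10 crosses it. The longest run shown, in Rps10, has 13 bases. On either strand of the 70-base window, ACTTCCG, the core of sites for ETS factors, was present for 21.4% of member genes and 3.64% of all genes. The word CTTTCC, which can lie inside a pyrimidine run, was present for 35.7% against 7.40%, and TATAAA for 3.57% against 4.61%. These letters describe the windows and locate no binding.

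The bright members were highest in spleen, intermediate in lung and lowest in heart and liver. Their median per array lay between 13.68 and 14.03 log2 in the 6 spleens of time 2, between 13.22 and 13.57 in lungs, between 12.85 and 12.94 in hearts and between 12.66 and 12.98 in livers. Spleens did not overlap any other organ, lungs lay above hearts and livers, and hearts and livers overlapped. At time 1 the medians were 13.95 to 14.14 in spleens, 13.38 to 13.52 in lungs, 12.94 to 13.09 in hearts and 12.53 to 12.78 in livers, although those organs were not all in 1 run. The dim members did not share this order: at time 2 their medians were 8.12 to 8.46 in spleens, 7.96 to 8.43 in lungs, 8.36 to 8.62 in hearts and 8.50 to 8.78 in livers.

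**Figure D1:**
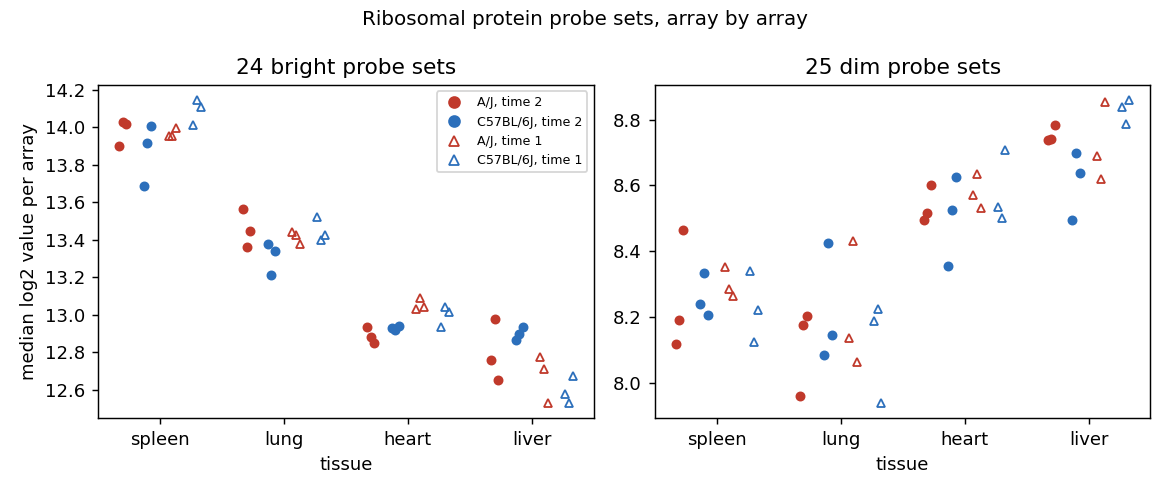
Median log2 value per array over the 24 bright (left) and the 25 dim (right) member probe sets, by organ, strain and time; each point is 1 array. On the left, time 2 spleens sit at 13.68 to 14.03, above lungs at 13.22 to 13.57 and hearts at 12.85 to 12.94; on the right, spleens and lungs are not the highest organs.

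At time 2, limma with Benjamini-Hochberg adjustment over all 12422 probe sets called 22 of the 24 bright members higher and 2 lower in spleen than in liver. The median difference was 0.80 log2, against 0.07 for non-members above the same percentile. Over all 49 members 24 were higher and 10 lower. Of all probe sets, 31.3% were called higher and 30.1% lower. In spleen against heart the bright counts were 22 higher and 2 lower (median 0.79), and over all members 24 and 11, against 29.8% and 37.3% of all probe sets. In spleen against lung they were 19 higher and 0 lower (median 0.46), and over all members 26 and 2, against 29.3% and 23.8%. All spleen arrays lay above all liver arrays for 21 of the 24, above all hearts for 21 and above all lungs for 15, against 20.5%, 19.6% and 12.1% of all probe sets. Called higher in spleen than in each other organ were 18 of the 24, against 15.3% of all probe sets. The 39 joined entries were called higher in spleen than in liver for 33, than in heart for 31 and than in lung for 30.

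Both subunits shared the order. In spleen against liver, 10 of 11 bright large-subunit probe sets and 12 of 13 small-subunit ones were higher, with medians of 0.98 and 0.75 log2. In spleen against heart the counts were again 10 of 11 and 12 of 13, with medians of 0.77 and 0.80.

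Markers of B cells, T cells, erythroid precursors and dividing cells had their highest medians in spleen. The mean over 6 B cell markers was 12.26 to 12.84 log2 in spleens, with medians of 10.26 in lungs, 9.65 in hearts and 9.78 in livers. The mean over 9 proliferation markers was 9.78 to 11.47 in spleens and 9.54 at most elsewhere. In spleens of time 2 it was 11.04 to 11.47 in A/J and 9.78 to 9.96 in C57BL/6J. In those of time 1 the strains overlapped, at 10.59 to 10.84 in A/J and 10.04 to 10.68 in C57BL/6J. T cell markers (6) averaged 9.05 to 9.72 in spleens and 8.18 at most elsewhere. Erythroid precursor markers (6) had a median of 11.60 in spleens, with a range of 9.33 to 12.41, and 9.55 at most elsewhere. In spleens of time 2 they were at 12.16 to 12.41 in A/J and 9.33 to 10.07 in C57BL/6J. In those of time 1 they were at 11.64 to 11.91 in A/J and 10.4 to 11.56 in C57BL/6J. The bright member medians of the time 2 spleens overlapped between strains, at 13.9 to 14.03 in A/J and 13.68 to 14.01 in C57BL/6J. The part of these markers in the ribosomal protein difference was not tested. Hepatocyte, cardiomyocyte and lung epithelium markers were highest in their own organs. Hepatocyte markers were also at 9.57 to 10.33 in A/J spleens of time 2, against 8.50 to 9.23 in C57BL/6J spleens of time 2. They reached 10.42 in an A/J lung of time 1. Cardiomyocyte markers reached 10.77 in a C57BL/6J lung of time 2. Lung epithelium markers reached 11.05 in C57BL/6J hearts of time 1 and 10.39 in those of time 2. The part of these signals in the organ differences was not tested. Markers of exocrine pancreas, an organ beside the spleen, were high in 5 spleen arrays and 1 liver array, with means up to 13.20 and 12.99. Without these arrays the bright medians were 0.75 for spleen minus liver, 0.82 for spleen minus heart and 0.43 for spleen minus lung.

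Among the large-subunit proteins, Rpl13a, which outside the ribosome can act in silencing of inflammatory mRNAs, had the largest organ difference although its probe set was among the dim ones. The 6 spleens of time 2 had 10.52, 10.90 and 10.81 log2 in A/J and 11.02, 10.73 and 11.03 in C57BL/6J. The hearts had 9.04, 9.24 and 9.16 in A/J and 9.04, 8.99 and 8.82 in C57BL/6J. Every spleen exceeded every heart by more than 1 log2 unit. The spleen minus heart difference was 1.79 ± 0.08 (SE), with an adjusted p from limma of 1.67e-15, and spleen minus liver and spleen minus lung were 1.58 ± 0.08 and 1.23 ± 0.08.

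Rpl10a, a protein of the large subunit's stalk near the exit site, was read by a pair of probe sets that moved together, with a Pearson r of 0.85 over the 48 arrays. Set 100711_at averaged 13.17 ± 0.18 log2 in spleens, against 11.69 ± 0.04 in hearts (SD, n = 6 each, time 2). Its difference was 1.48 ± 0.08 (SE) from heart, 1.16 ± 0.08 from liver and 1.23 ± 0.08 from lung. Set 161327_f_at gave 1.41 against heart, 1.1 against liver and 0.82 against lung.

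Rpl6, Rpl19 97483_at, Rpl8 and Rpl37a, all large-subunit proteins, were higher in spleen than in liver by 1.02, 0.89, 0.98 and 1.03 log2. Rpl7 97695_s_at was higher in spleen than in liver by 1.01 and in lung than in liver by 0.83, the largest lung minus liver difference among members. Spleen and lung were not separated for it (0.18, adjusted p 0.0583 by limma). Rplp0, the base of the stalk that recruits elongation factors, averaged 14.30 ± 0.05 in spleens, 13.92 ± 0.08 in lungs, 13.93 ± 0.03 in hearts and 13.70 ± 0.09 in livers. Rpl41, the smallest protein of the family, had a spleen minus liver difference of 0.25 and a spleen minus lung difference of 0.02, with signals near the top of the range.

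Among the small-subunit proteins, Rps10 and Rps4x 100780_at had the largest spleen minus liver differences, 1.14 ± 0.08 and 1.16 ± 0.08 log2. Rps10 was at 13.58, 13.74 and 13.70 in A/J spleens and 13.76, 13.65 and 14.10 in C57BL/6J spleens of time 2. Its livers had 12.46, 12.64 and 12.40 in A/J and 12.79, 12.66 and 12.75 in C57BL/6J, so that the organs did not overlap. Rps3, Rps3a1 and Rps7 were higher in spleen than in liver by 1.05, 0.95 and 0.84. Rpsa, also known as the laminin receptor precursor, was higher in spleen than in heart by 1.02 ± 0.06 and than in lung by 0.76 ± 0.06. Rps19, mutated in human Diamond-Blackfan anaemia, averaged 12.12 ± 0.05 in spleens, 11.84 ± 0.10 in lungs, 11.32 ± 0.11 in hearts and 11.37 ± 0.14 in livers.

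The 2 bright exceptions were Rpl19 161961_at and Rps13 93027_r_at. They were lower in spleen than in liver (-0.26 and -0.17 log2) and than in heart (-0.38 and -0.22). Their mean signals, 10.79 and 10.92, lay close to the border between bright and dim.

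**Figure D2:**
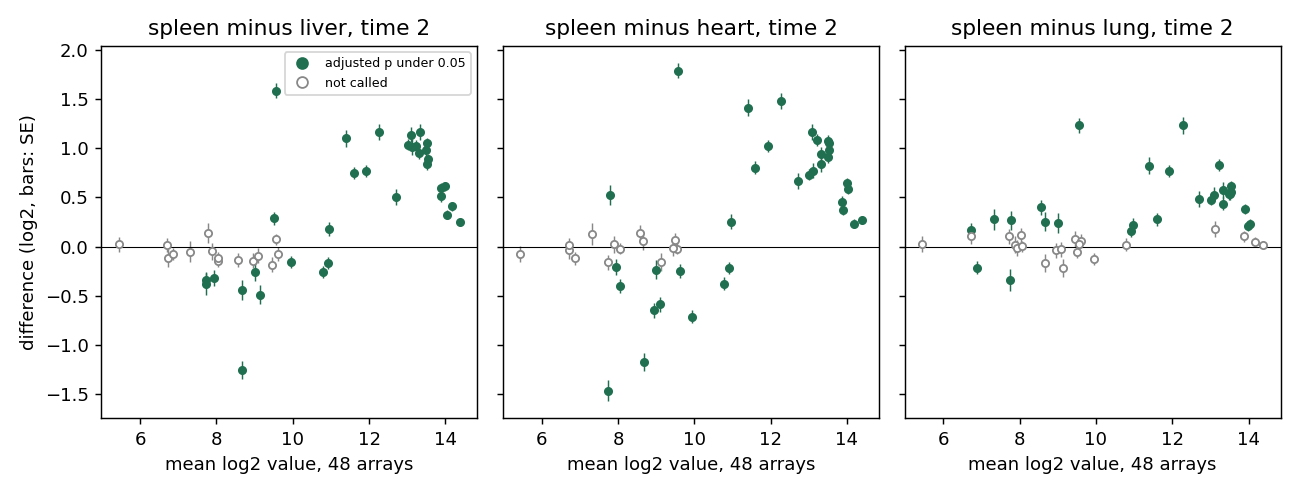
Spleen minus liver, heart and lung at time 2 (log2, bars are SE) for the 49 member probe sets against their mean log2 value over 48 arrays; filled points had an adjusted p under 0.05. Probe sets with high means are mostly above 0 in each panel, and Rpl13a is the high point at a mean of 9.56.

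Lung stood between spleen and the other organs. In lung against liver 17 bright members were higher and 2 lower (median 0.32), and over all 49 members 19 and 14, against 31.7% and 34.4% of all probe sets. In lung against heart 20 bright members were higher and 2 lower (median 0.31), and over all members 22 and 14, against 29.3% and 39.2%. The order spleen above lung, and lung above both heart and liver, held in the means of 19 of the 24. Spleen had the highest mean for 22 of the 24 at time 2 and for 21 at time 1. Heart against liver gave 5 higher and 4 lower bright members (median -0.03), and over all members 12 and 9, against 34.5% and 22.3%. Quantile normalization turned that median to 0.07. Centring on bright non-members moved every spleen minus lung difference by 0.10 log2 and every lung minus liver difference by -0.15. In lung against liver it left a bright median of 0.17 and gave 15 members higher and 24 lower. It gave 18 higher and 17 lower in lung against heart (bright median 0.23) and 10 and 16 in heart against liver (bright median -0.09). The Gapdh 3' to 5' difference, a sign of RNA quality, was 1.05 to 1.96 log2 in lungs of time 2. It was 0.48 to 0.90 in spleens, 0.08 to 0.23 in hearts and 0.16 to 0.35 in livers of that time. For actin the same measure overlapped between lungs, at 0.21 to 0.60, and livers, at 0.26 to 0.50. Spleens had 0.09 to 0.14 and hearts 0.13 to 0.27. The part of RNA quality in the lung differences was not tested.

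The dim members did not follow against liver and heart. In spleen against liver 2 of the 25 were higher and 8 lower, against 31.3% and 30.1% of all probe sets. In spleen against heart 2 were higher and 9 lower, against 29.8% and 37.3%. The lower counts lay near those shares and the higher counts below them. Against lung, 7 were higher and 2 lower in spleen, with a median of 0.03 log2, against 29.3% and 23.8% of all probe sets. Rpl32 160478_r_at, a large-subunit set, lay between 7.87 and 8.34 log2 in spleens of time 2, between 9.04 and 9.51 in hearts and between 9.19 and 9.59 in livers. Spleen minus liver was -1.26 ± 0.09 and spleen minus heart -1.17 ± 0.09. Rps29, a small zinc-binding protein, was lower in spleen than in heart in both probe sets, by -0.58 (162335_at) and -0.25 (98523_at). Called higher in heart than in each other organ were 6 probe sets, all dim and from Rps4x, Rps29 and Rps14, against 16.8% of all probe sets. Fau, which encodes Rps30 fused to a ubiquitin-like protein and lies outside the selection, averaged 8.51 ± 0.16 in spleens, 8.55 ± 0.12 in lungs, 8.89 ± 0.10 in hearts and 8.68 ± 0.18 in livers.

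Probe sets of the same gene often opposed each other. Over 48 arrays, the brighter and the dimmer set correlated at r = -0.77 for Rpl7, -0.74 for Rps24 and -0.64 for Rpl19, as a description over arrays that share runs. The bright Rps28 sets correlated at 0.92 with each other and at -0.51 and -0.45 with the dim set 98086_r_at. The median r was 0.84 among bright probe sets, 0.27 among those below and -0.33 between both kinds. For these genes the direction of an organ difference depends on the probe set read.

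Rps4x, an X-linked small-subunit gene, had 5 probe sets. Set 100780_at had 14.01, 14.22 and 14.18 log2 in A/J spleens and 13.43, 13.99 and 14.03 in C57BL/6J spleens of time 2, against 13.13, 13.02 and 12.97 in A/J hearts and 13.29, 13.20 and 13.20 in C57BL/6J hearts. All spleens were above all hearts. The lowest of these spleens, C57BL/6J replicate 1, was among those with high exocrine pancreas markers. Set 162244_r_at went the other way: its spleens had 6.77, 7.09 and 6.84 in A/J and 7.01, 7.41 and 7.22 in C57BL/6J, against 8.37, 8.52 and 8.34 in A/J hearts and 8.22, 8.99 and 8.67 in C57BL/6J hearts. Spleen minus heart was 0.84 ± 0.08 for 100780_at and -1.46 ± 0.11 for 162244_r_at, with -0.71 for 162498_r_at, -0.65 for 161654_r_at and 0.14 for 162229_at. The first 4 passed limma's test and the last had an adjusted p of 0.101.

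**Figure D3:**
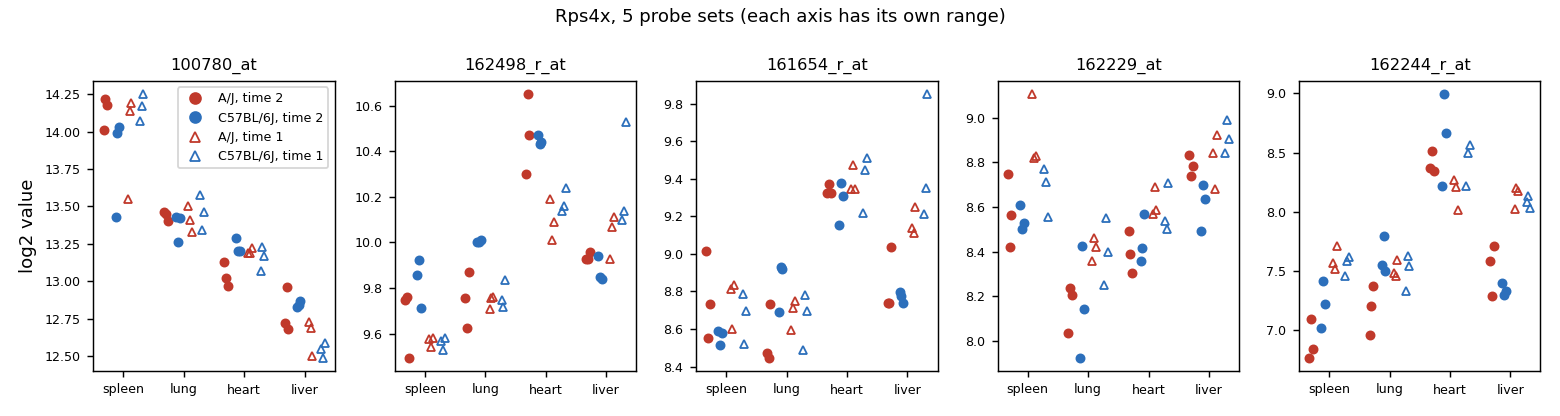
Log2 value of the 5 Rps4x probe sets in each array by organ, strain and time; each panel has its own range. The means of 100780_at fall in the order spleen, lung, heart, liver, while at time 2 the sets 162498_r_at, 161654_r_at and 162244_r_at are highest in hearts.

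The paralogs had their own patterns. Rps27l, induced by p53, and Rps4l 98149_s_at were called higher in liver than in each other organ, as were 11.8% of all probe sets. Rps27l lay between 8.70 and 9.31 log2 in livers of time 2 and between 8.27 and 8.57 in lungs. Lung minus liver was -0.70 ± 0.10 and heart minus liver -0.50 ± 0.10, while heart minus liver at time 1, across runs, was -0.08. Rpl7l1, a ribosome assembly protein, was higher in spleen than in heart by 0.53 ± 0.10. Rpl39l averaged 7.90 ± 0.28 in spleens, 7.88 ± 0.11 in lungs, 7.88 ± 0.06 in hearts and 7.95 ± 0.15 in livers, and no organ pair passed the test.

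Rps4l was included because of its strain difference, which is therefore given as a description without a test. Set 98149_s_at was lower in A/J in all organs at both times. At time 2 its spleens had 8.90, 8.51 and 8.87 log2 in A/J, against 9.53, 9.18 and 9.28 in C57BL/6J. Its lungs had 8.46, 8.70 and 8.96 in A/J, against 9.81, 9.70 and 9.92 in C57BL/6J. Within each organ and time, no A/J array reached the lowest C57BL/6J array.
At time 2 the hearts had 8.70, 8.58 and 8.89 in A/J, against 9.53, 9.82 and 9.69 in C57BL/6J. The livers had 9.20, 8.95 and 9.10 in A/J, against 10.10, 9.84 and 9.99 in C57BL/6J. The A/J minus C57BL/6J difference over both times was -0.58 in spleen, -1.08 in lung, -0.89 in heart and -0.64 in liver. In liver it was -0.39 at time 1 and -0.90 at time 2.
The other Rps4l set, 98148_at, showed no such separation, and its only groups without overlap in the same organ and time were the livers of time 2, at 8.27, 8.32 and 8.44 in A/J against 8.14, 8.02 and 7.87 in C57BL/6J. Its differences were 0.11 in spleen, -0.05 in lung, 0.05 in heart and 0.13 in liver, and the 2 sets correlated at r = 0.03 over 48 arrays. The suffix _s marks, in this array's design, a set whose probes can match several transcripts, and sequence differences between the strains under the probes were not tested. Rps4x, its nearest relative among the members, had no strain call in any organ for any of its 5 probe sets. Of all single-symbol probe sets, those with the strongest correlation of either sign with 98149_s_at over 48 arrays were Mir686 101741_at (r = 0.78), H2-K1 97700_at (r = -0.73) and Mtm1 98524_f_at (r = -0.72). For 98148_at they were Hgf (r = 0.82), Stk36 (r = 0.80) and Qars (r = -0.79).

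**Figure D4:**
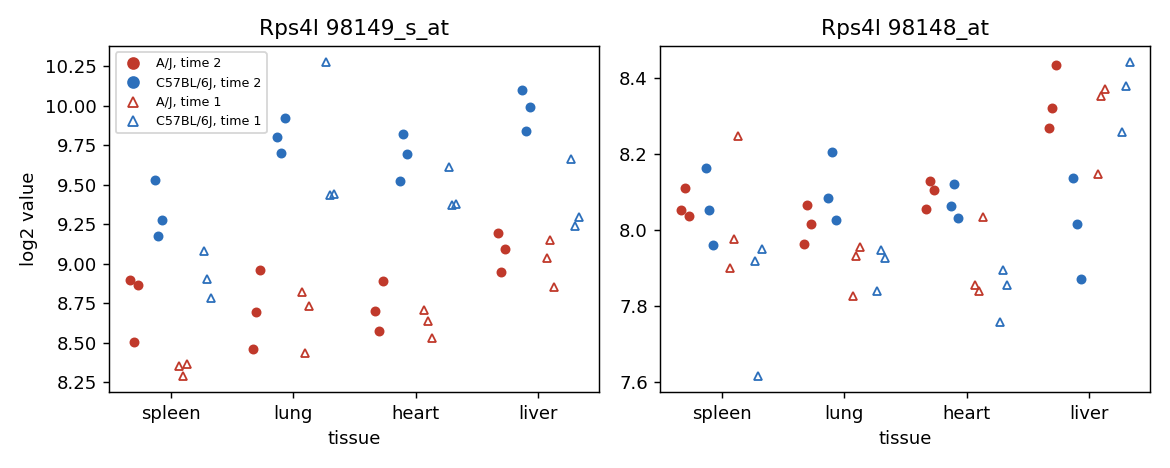
Log2 value of the 2 Rps4l probe sets in each array by organ, strain and time. For 98149_s_at, A/J arrays lie below C57BL/6J arrays within every organ and time; for 98148_at the strains overlap in most groups.

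The other 47 probe sets were tested between strains within each organ, with time as a covariate. Limma called 0 of 47 in spleen, lung and heart and 1 of 47 in liver. The background shares called over all probe sets were 12.7% in spleen, 5.22% in lung, 7.48% in heart and 4.07% in liver. At an unadjusted p under 0.05 the counts were 3 in spleen, 4 in lung, 8 in heart and 2 in liver, or 6.38%, 8.51%, 17.0% and 4.26% of members, against 24.3%, 18.7%, 20.1% and 16.2% of all probe sets. The 95% interval of the difference stayed within ±0.5 log2 for all 47 in spleen, lung and heart and for 46 in liver. The median differences were -0.03, -0.02, 0.02 and 0.00 in the same order.

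The member called in liver was Rpl13a. Its A/J livers had 9.05, 8.98 and 8.94 log2 at time 2 and 8.91, 8.86 and 8.88 at time 1, and C57BL/6J livers had 9.61, 9.48 and 9.44 at time 2 and 9.21, 8.99 and 8.98 at time 1. A/J livers lay below C57BL/6J livers at each time. The difference was -0.35 ± 0.07 (SE), with a limma adjusted p of 0.0110. It was -0.15 ± 0.08 in spleen, 0.12 ± 0.09 in lung and 0.17 ± 0.06 in heart, none of which passed. The liver difference was -0.18 at time 1 alone, with an adjusted p of 0.396 by limma.

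**Figure D5:**
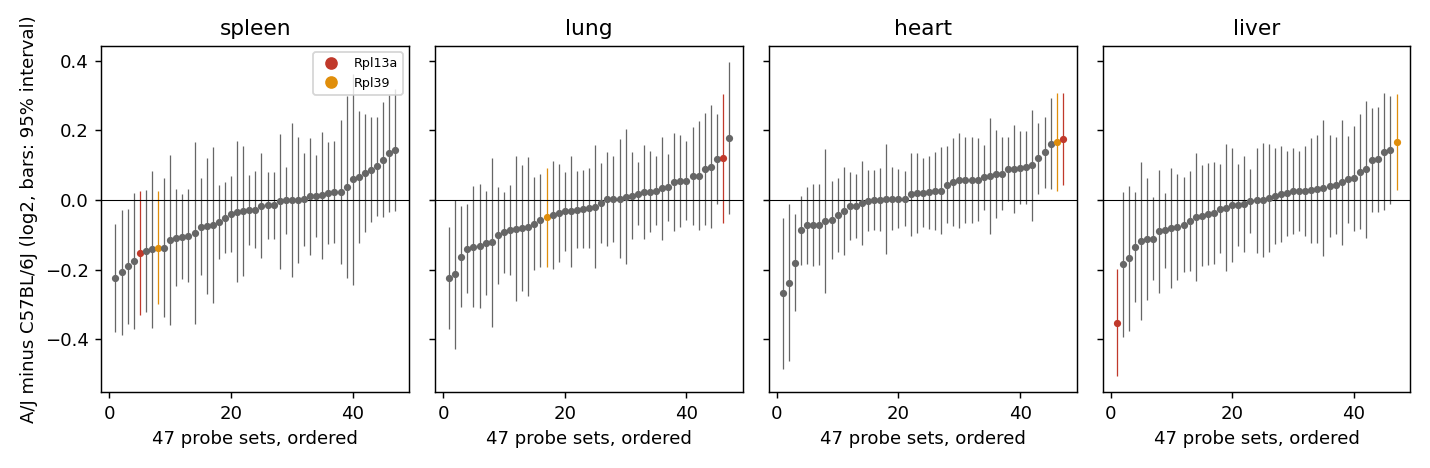
A/J minus C57BL/6J difference (log2) with its 95% interval for 47 member probe sets in each organ, ordered by size within the panel. Rpl13a is the lowest point in liver, at -0.35, and the highest in heart, at 0.17.

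Whether the strain difference departed between organs was asked with an F test over 48 arrays. It called 2 of 47 members, Rpl13a (limma adjusted p 0.000938) and Rpl39 (0.0281), against 18.5% of all probe sets. Rpl39, a small protein of the exit tunnel, differed by -0.14 in spleen, -0.05 in lung, 0.17 in heart and 0.17 in liver. Its signal was low, with time 2 means of 6.63 log2 (lung) to 6.81 (spleen), against array medians of 8.86 to 9.01. Its call was lost, with limma adjusted p values of 0.0512 to 0.0560, without A/J spleen time 2 replicate 2 or without C57BL/6J spleen time 2 replicate 1 or 2, and was 0.0776 without the pancreas-marker arrays. Whether the strain difference departed between times was tested within each organ, and limma called 0 of 47 in each. The background shares were 0.209% in spleen, 0.177% in lung, 0.386% in heart and 4.90% in liver, and at an unadjusted p under 0.05 the counts were 13, 12, 6 and 11 in the same order. These are 27.7%, 25.5%, 12.8% and 23.4% of members, against 19.6%, 18.0%, 10.7% and 24% of all probe sets. In liver, 5 members were called without A/J time 2 replicate 2. The share over all probe sets in that fit is not given here, so the rise is not read as particular to the members.

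Time 2 and time 1 were hybridised in different runs within each organ, so time and run cannot be told apart. Limma called 8 members higher and 9 lower at time 2 in spleen, against 13.0% and 18.9% of all probe sets. In lung 6 were higher and 7 lower, against 15.8% and 18.9%, and in heart 6 and 12, against 15.7% and 19.3%. In liver 18 were higher and 11 lower, against 20.2% and 30.1%. These splits depended on the scaling. Centring on bright non-members gave 5 higher and 11 lower in spleen and 4 and 8 in lung, in the same direction, and turned liver to 14 and 16. Median centring turned spleen to 9 and 6 and lung to 8 and 5. Without the spleens with high exocrine pancreas markers, the spleen calls did not hold. That fit kept a single array of A/J at time 1 and of C57BL/6J at time 2, which limits what it can call. The median difference over members was 0.025 log2 there, against 0.021 with all spleens, and the cause of the loss was not tested. A pair of A/J hearts of time 1 had a high Gapdh 3' to 5' difference, 1.34 and 1.41 log2, and without them 9 members were called in heart, with Rps13 and Rps24 93121_at no longer among them (adjusted p 0.0569 and 0.0577 by limma). These are 18.4% of members, against 25.5% of all probe sets. In lungs the same Gapdh measure was 1.05 to 1.96 at time 2, against 0.64 to 1.08 at time 1. The actin measure was 0.21 to 0.60 in lungs at time 2, against 0.04 to 0.14 at time 1. In that pair of hearts it was -0.83 and -0.79.

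Rplp0 lay between 13.58 and 13.82 log2 in livers of time 2, against 13.02 to 13.34 in livers of time 1, without overlap. The difference was 0.50 ± 0.06 in liver. Both Rpl38 probe sets, for a protein that in mouse embryos supports translation of Hox mRNAs, were higher at time 2 in all 4 organs. Their signals were low, with means of 7.32 log2 (99627_r_at) and 5.43 (99626_i_at), against array medians of 8.86 to 9.01. Set 99627_r_at differed by 0.44 in spleen, 0.50 in lung, 0.46 in heart and 0.45 in liver, and 99626_i_at by 0.48, 0.38, 0.46 and 0.23 in the same order. Rps28 98086_r_at was lower at time 2 in all 4, by -0.46, -0.62, -0.44 and -0.41. Rps13 and Rps24 93121_at were also lower at time 2 in all 4 organs. The bright sets of Rps28 and Rps24 did not follow. Rps28 100758_at differed by 0.02, 0.04, -0.17 and 0.44 in the same order, and 98085_f_at by 0.02, 0.04, -0.01 and 0.14. Rps24 97696_r_at differed by -0.01, 0.15, 0.09 and 0.41. The liver call of 99626_i_at was lost with centring on bright non-members (0.14, adjusted p 0.184). The Rpl10a sets disagreed in lung, with 0.40 for 161327_f_at and -0.42 for 100711_at.
The spleen calls among these were lost without the pancreas-marker arrays, in a fit that kept a single array in some spleen groups. Some bright members reached the array's shared maximum in arrays of spleen and lung at time 1. These were Rpl41 in 12 arrays, Rps28 100758_at in 6 and 98085_f_at in 5, Rps18 in 2 and Rplp0 in 1. Differences of these sets that involve spleen or lung at time 1 are therefore bounds. Spleens of time 2 had no shared maximum, but Rps28 100758_at, 98085_f_at and Rps18 averaged 14.40, 14.38 and 14.36 log2 there. At time 1 their spleen means were 14.37, 14.36 and 14.35. Whether this limits their organ differences at time 2 was not tested.

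Lists of other translation genes were described by the brightest probe set of each gene. Ribosome assembly factors had 39 measured genes of 44 listed. At time 2 they were higher in spleen than in liver for 26 genes and lower for 1. The counts were 23 and 6 against heart and 29 and 1 against lung. The medians were 0.31, 0.33 and 0.32 log2 against liver, heart and lung. Of all probe sets, 31.3% were called higher and 30.1% lower in spleen than in liver. The shares were 29.8% and 37.3% against heart and 29.3% and 23.8% against lung. Fbl, which methylates ribosomal RNA, was higher in spleen by 1.00 against liver, 1.34 against heart and 1.41 against lung, and Npm1, a nucleolar chaperone, by 0.78, 0.91 and 0.66.
Mitochondrial ribosomal proteins, 61 genes, were highest in heart: 0 were higher and 52 lower in spleen than in heart (median -0.76), and 0 higher and 58 lower in lung than in heart (median -0.91). Of all probe sets, 29.3% were called higher and 39.2% lower in lung than in heart. Between spleen and lung, 32 of the 61 genes were higher and 2 lower in spleen (median 0.21). Between spleen and liver 3 were higher and 38 lower (median -0.27). Initiation factors, 29 measured of 39, gave 11 higher and 5 lower in spleen than in liver, and elongation factors, 9 of 10, gave 3 and 1. The elongation factor Eef2 was higher in spleen than in liver by 0.42 and Eef1a1 differed by 0.08, below the test. The mTOR list, 13 of 19, gave 5 higher and 4 lower in spleen than in liver. In that comparison 55.2% of initiation factors, 44.4% of elongation factors and 69.2% of the mTOR list were called. The share over all probe sets was 61.4%.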

How the data were processed

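The deposited values, per the labels from total RNA of each organ on MG-U74Av2 arrays, are log2 signals of 12488 probe sets, and the authors' summarisation and normalization are not given in the sources used here. They were used as deposited (4.25 to 14.72). Array medians lay between 8.86 and 9.01. The 66 control probe sets were left out, with no filter on low values, which left 12422. The number of arrays limits the precision. Names came from the platform table (1 symbol for 10833, several for 396, 1193 not listed). All 35 member genes were found by identifier in RefSeq's table.

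Tests used limma 3.58.1 in R 4.3.3 (lmFit and eBayes) and p-values were adjusted by Benjamini-Hochberg across every tested probe set, with 0.05 as threshold. Strain and time were fitted within each organ, organ pairs over the 24 arrays of time 2. The script was tested on simulated data. Named members are the paralogs, a fixed list (Rps4x, Rplp0, Rps19, Rpl38, Rpl13a, Rpsa), those with the largest called differences between organs or times, and those with the smallest p for strain. Others named beside them were chosen after their values were seen. Rps4l was left out of strain counts. Members, lists and the level split were chosen with earlier results of these data known. Alternatives were other normalizations, a low filter, an intensity trend, probe set choice, single times, a block and left-out arrays.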

Additional observations from a re-analysis of the deposited data

Results flagged for a closer look

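The strain difference of Rpl13a departed between organs in limma's F test (adjusted p 0.000938). A/J minus C57BL/6J was -0.15 in spleen, 0.12 in lung, 0.17 in heart and -0.35 log2 in liver, with 12 arrays per organ. That of Rpl39 departed between organs as well (limma adjusted p 0.0281), at -0.14 in spleen, -0.05 in lung, 0.17 in heart and 0.17 in liver. The Rpl39 signal was low, with organ means of 6.63 to 6.81 log2 at time 2, against array medians of 8.86 to 9.01.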

How the results depend on the processing

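Values here are the percent of members called, without the shares over all probe sets in the same settings. The medians of the bright members for spleen against liver, heart and lung at time 2 stayed above 0 in all settings run. Strain in liver (2.13 as reported) came to 0 with the replicate block and at time 1 alone, and to 4.26 at time 2 alone. Strain in heart (0) came to 2.13 with quantile normalization and at time 1 alone, and strain in spleen (0) to 2.13 with quantile normalization and with centring on bright non-members. Strain by time in liver (0) came to 2.13 with quantile normalization, 4.26 with median centring, 4.76 without probe sets under the 25th percentile and 2.13 with the intensity trend. Strain by tissue (4.26) came to 2.13 with the replicate block, 2.38 without probe sets under the 25th percentile and 2.13 without the pancreas-marker arrays. Time in heart (36.7) came to 18.4 without the hearts with a high Gapdh 3' end, time in spleen (34.7) to 0 without the pancreas-marker arrays, and time in lung (26.5) to 17.6 with plain probe set suffixes only. Both exclusions were chosen after seeing the data and left a single array in some groups, and the cause of these changes was not tested. Leaving out 1 array gave 0 to 2.13 for strain in heart (1 member without C57BL/6J time 2 replicate 1 or 3) and in spleen (1 without C57BL/6J time 1 replicate 1 or time 2 replicate 2), 0 to 10.6 for strain by time in liver (5 members without A/J liver time 2 replicate 2), and 2.13 to 6.38 for strain by tissue. Rpl6 at time 2 against time 1 in liver turned to -0.0208 under quantile normalization. Replicate numbers are shared between groups but do not pair arrays: same-numbered arrays of the strains correlated in their deviations at -0.58 to 0.36, with 7 of 24 pairs over 0.1. The replicate block moved no other count by more than 1.5 times.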
